A study of Mus musculus with 40 samples.

Results

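The genes of 9 receptors by which breast epithelium and breast cancers are classified or driven were examined in mouse mammary tumors, namely those of the estrogen receptor (Esr1), the progesterone receptor (Pgr), the prolactin receptor (Prlr), the receptors of the ERBB family Egfr, Erbb2 and Erbb3, and the growth factor receptors Met, Igf1r and Fgfr1. They were chosen by symbol, and all 9 were among the 14318 genes of the expression table. RNA had been sequenced from 39 primary tumors, 19 from the model with 4T1 and 20 from that with 66cl4 cells, taken 5 w p.i. Both models share their host, wild-type BALB/c females that were lactating when injected. Their route is shared too, the injection of luciferase-labelled 4T1 or 66cl4 cells into the mammary ducts. Fewer 4T1 than 66cl4 cells were injected. The pups had been weaned before injection, and the paper attributes an early weight loss to the end of milk production. Both lines stand as models of triple-negative breast cancer (TNBC), the disease defined by a lack of estrogen and progesterone receptor and of HER2 amplification. In each model, tumors were untreated, received 200 µg anti-PD-1 weekly, received 1 mg chitin every few days as a blocker of chitinase-like proteins, or received both. Each of these 8 groups held 5 tumors, apart from untreated 4T1 with 4, since the tumor numbered 3 of that group was removed by the authors for degraded RNA and is not analysed here. Each model is 1 injected cell line. Cells were injected into a pair of mammary glands of each mouse, so that a mouse could carry more than 1 tumor. The labels do not say which tumors came from separate animals. The p-values therefore measure the spread between these tumors, some of which may share a mouse.

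Estrogen and progesterone receptor are transcription factors that are activated by their hormones, and the prolactin receptor signals through JAK2 and STAT5 in the mammary epithelium during pregnancy and lactation. The other 6 are receptor tyrosine kinases. EGFR binds ligands such as TGF-alpha, ERBB3 binds neuregulins and signals as a partner of ERBB2, which itself has no known ligand, and MET, IGF1R and FGFR1 are the receptors of hepatocyte growth factor, the insulin-like growth factors and fibroblast growth factors. In the breast, hormone receptors are mostly found on luminal epithelial cells, while EGFR and FGFR1 are also found on stromal cells.

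Pgr and Prlr varied together between tumors, as described further on, and the 250 bases upstream of a listed start of each gene are shown for this reason (RefSeq, GRCm38.p6). They were searched on both strands for the estrogen response element (GGTCA, then any 3 bases, then TGACC), for GGTCA alone, which is part of it, for the STAT site TTCNNNGAA, and for GGGCGG and TATAAA, and matches are in capitals.
Pgr, chr9:8899583-8899832, plus strand: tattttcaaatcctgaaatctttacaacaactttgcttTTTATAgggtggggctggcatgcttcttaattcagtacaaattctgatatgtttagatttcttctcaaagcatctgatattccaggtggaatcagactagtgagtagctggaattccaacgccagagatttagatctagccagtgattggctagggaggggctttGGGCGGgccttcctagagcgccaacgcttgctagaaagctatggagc
Prlr, chr15:10223656-10223905, plus strand: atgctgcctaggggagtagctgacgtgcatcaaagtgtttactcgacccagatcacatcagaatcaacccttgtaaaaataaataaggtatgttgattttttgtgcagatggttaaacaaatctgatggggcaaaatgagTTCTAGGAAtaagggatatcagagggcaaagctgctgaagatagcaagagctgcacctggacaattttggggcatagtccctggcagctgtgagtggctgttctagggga
The Pgr window held GGGCGG at -47 and TATAAA, on the minus strand, at -212 from the listed start of transcription. This window lies inside the span of the gene, 8898900 to 8968611. The Prlr window, 1 of 3 listed for this gene, was picked for display because it held TTCNNNGAA, at -110. It lies inside the span of the gene, 10177238 to 10349190. The other windows, among them the one at the start of that span (10176988 to 10177287), held none of the 5 motifs. In windows of 300 bases around the start, which reach 50 bases past it, 8.3% of the 32851 listed promoters held TTCNNNGAA, 35.7% held GGGCGG, 13.6% held TATAAA, 40.5% held GGTCA and 0.07% held the full estrogen response element. Of the 9 receptor genes, 7 had promoters listed. The full element was found in 0 of their 10 windows, and TTCNNNGAA was found in 1 of the 2 Esr1 windows, at -188. These are matches of letters and not measured binding.

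The depth over the genes of the table ran from 5105898 to 14800352 reads, with 6590274 as the median tumor. Values are on the scale of the variance stabilizing transformation (VST), which is close to log2 for well-expressed genes and flattens differences where reads are few. A gene with 0 reads stands at 6.05. Normalized counts are the reads recovered from these values after scaling each tumor by its size factor. The models differed in the markers expected of a mammary carcinoma. Of 6 luminal epithelial markers (Epcam, Cdh1, Krt7, Krt8, Krt18, Krt19), 6 were higher in 4T1, and their mean VST level ran from 10.92 to 12.88 in 4T1 and from 7.45 to 8.74 in 66cl4. In 66cl4, Epcam lay between 1.12 and 123.2 normalized counts and Cdh1 between 10.1 and 107.1, whereas Krt8 lay between 3152 and 5709. Of the other lists, 5 of 5 macrophage markers were lower in 4T1, while higher there were 5 of 5 neutrophil markers, 6 of 6 adipocyte markers, 4 of 5 endothelial, 4 of 5 skeletal muscle and 4 of 6 basal and myoepithelial markers (Trp63 was lower) and 3 of 6 fibroblast markers (Pdgfra was lower). Over all genes, 40.8% were higher and 38% lower in 4T1, and 78.8% differed. Of 7 genes of lactating mammary epithelium, 3 were higher in 4T1, and Csn1s2a, Wap, Lalba and Glycam1 were absent from the table. In a bulk tumor, fewer cells of a type and less RNA per cell cannot be told apart, which holds for each difference given here.

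The hormone receptors did not differ between the models in the same way. Esr1 (Entrez 13982, chromosome 10 of mm10, 4611989 to 5005633, plus strand) was lower in 4T1 tumors, where it lay between 89.96 and 194 normalized counts with a median of 140.3. In 66cl4 tumors, it lay between 214.5 and 340.2 with a median of 277.5. Thus every 4T1 tumor lay below every 66cl4 tumor, and Esr1 was the only one of the 9 genes for which the models did not overlap, where 17.9% of all genes did not. The difference was -0.65 on the VST scale (standard error 0.0483, limma, adjusted p = 1.80e-14), with means of 141.1 ± 29.6 (SD, n = 19) and 281.7 ± 34.7 (n = 20) normalized counts. Pgr (Entrez 18667, chromosome 9, 8898900 to 8968611, plus strand) had few reads in both models. It ranged from 0 to 110.5 normalized counts in 4T1, with a median of 10.2, and from 0 to 44.7 in 66cl4, with a median of 3.97. In 2 of the 4T1 and 3 of the 66cl4 tumors, no read was counted, which allows up to 3 reads. The models overlapped, and the difference of 0.17 (95% interval -0.072 to 0.42) did not pass the threshold (limma, adjusted p = 0.186). In limma-voom, whose log2 scale is not flattened at few reads, the difference was 0.90 and did not pass either. Prlr (Entrez 19116, chromosome 15, 10177238 to 10349190, plus strand) had the widest VST range of the 9 genes, from 6.05 to 9.29. It ranged from 0 to 498.5 normalized counts with a median of 30.5 in 4T1, and from 0 to 223.9 with a median of 35.3 in 66cl4. The means were 91.8 ± 132.4 and 61.0 ± 65.5 (SD), so that the SD exceeded the mean in each model, and the difference was 0.027 (95% interval -0.47 to 0.53, limma, adjusted p = 0.923). Its sign changed with quantile normalization, in limma-voom and between untreated tumors alone.

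All 3 ERBB receptor genes of the table were higher in 4T1. Egfr (Entrez 13649, chromosome 11, 16752203 to 16913907, plus strand) had the largest difference of the 9 genes. It lay between 53.2 and 319.9 normalized counts in 4T1, with a median of 137.5, and between 7.51 and 53.2 in 66cl4, with a median of 23.4. The lowest 4T1 and the highest 66cl4 tumor met at the same level, and all others were separated. The difference was 1.06 on the VST scale (standard error 0.106, limma, adjusted p = 4.70e-11), and the mean over groups was 5.98 times as high in normalized counts. Erbb3 (Entrez 13867, chromosome 10, 128567523 to 128589635, minus strand) lay between 82.9 and 385.3 normalized counts in 4T1, with a median of 177.2, and between 45.5 and 109.9 in 66cl4, with a median of 69.8. The difference was 0.79 (standard error 0.0898, limma, adjusted p = 9.79e-10), and only the lowest 4T1 tumors overlapped with 66cl4. Erbb2 (Entrez 13866, chromosome 11, 98412484 to 98437716, plus strand), the gene amplified in HER2-positive breast cancer, lay between 380.1 and 980.4 normalized counts in 4T1 and between 405.1 and 688 in 66cl4, with medians of 696.5 and 502.6. Here the models overlapped widely, and the difference was 0.28 (standard error 0.0664, limma, adjusted p = 0.000232). Between untreated tumors alone, Erbb2 differed by 0.19 and missed the threshold (limma, adjusted p = 0.253). The luminal markers were higher in the same model as these genes, and their part in the difference was not tested.

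The other receptor tyrosine kinases were all lower in 4T1. Fgfr1 (Entrez 14182, chromosome 8, 25518759 to 25575718, plus strand) lay between 228.2 and 986 normalized counts in 4T1, with a median of 518.3, and between 742 and 1377 in 66cl4, with a median of 935.9. The spread was wide in 4T1 and its highest tumors reached the 66cl4 range, and the difference was -0.75 (standard error 0.115, limma, adjusted p = 3.79e-07). Igf1r (Entrez 16001, chromosome 7, 67952257 to 68233668, plus strand) lay between 575.9 and 1227 in 4T1 and between 1091 and 1761 in 66cl4, with medians of 990.4 and 1295 normalized counts. It differed by -0.51 (standard error 0.0564, limma, adjusted p = 5.65e-10). Met (Entrez 17295, chromosome 6, 17463349 to 17573980, plus strand) had the smallest of these differences, at -0.32 (standard error 0.0901, limma, adjusted p = 0.00151). It lay between 356.7 and 1016 normalized counts in 4T1, which enclosed the 66cl4 range of 517.8 to 861.1, and the medians were 487.9 and 701.4. Between untreated tumors alone, Met differed by -0.36 and missed the threshold (limma, adjusted p = 0.106). In all, 3 of the 9 genes were higher and 4 lower in 4T1 at an adjusted p under 0.05. Over all genes, 40.8% were higher and 38% lower, 78.8% together, so that 7 of 9 is close to the share of all genes. The median difference over all genes was 0.015. On the log2 scale of limma-voom, the differences of Egfr, Erbb3 and Esr1 were larger, at 2.38, 1.32 and -1.09, and passed as well.

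**Figure D1:**
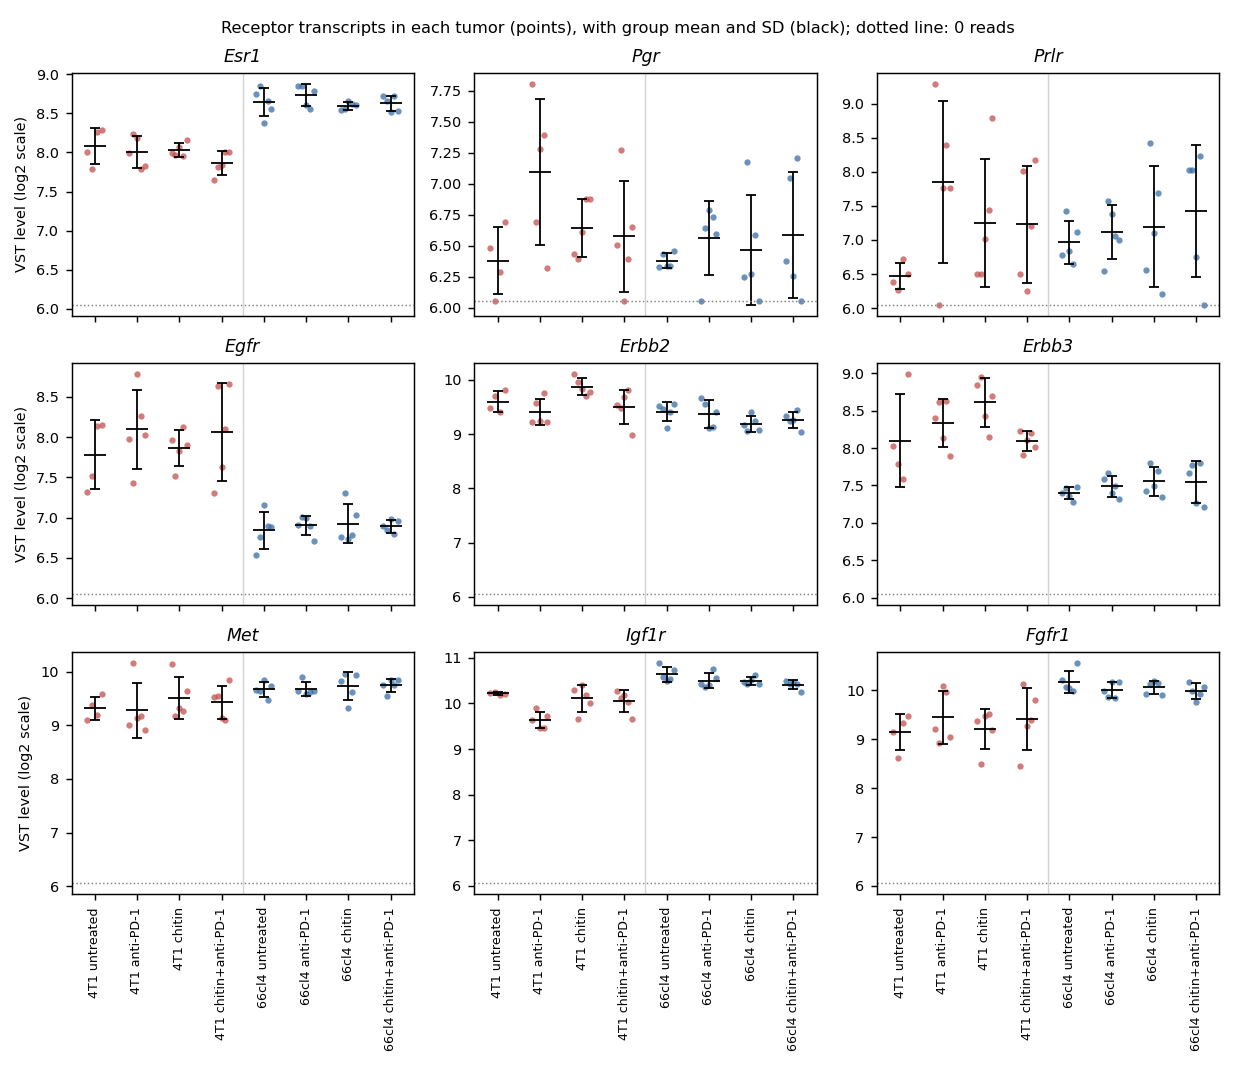
VST level on the log2 scale of the 9 receptor genes in each of the 39 tumors, by model (4T1 red, 66cl4 blue) and treatment. Black bars are the group mean and SD and the dotted line is the level of 0 reads. Esr1 lies between 7.65 and 8.29 in 4T1 and between 8.38 and 8.86 in 66cl4, while Pgr and Prlr reach down to 6.05 in both.

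Levels of different genes were compared as normalized counts per kb of annotated exons. In 4T1, the order of the means was Erbb2 (127), Met (73.5), Fgfr1 (55.0), Igf1r (54.3), Erbb3 (34.5), Egfr (13), Esr1 (10.3), Prlr (5.99) and Pgr (2.44). In 66cl4, it was Erbb2 (98.8), Fgfr1 (95.6), Met (92.9), Igf1r (79.5), Esr1 (20.6), Erbb3 (12.3), Prlr (3.98), Egfr (2.14) and Pgr (1.22). Erbb2 thus had the highest mean and Pgr the lowest in both models, and Esr1 and Egfr changed places. Of the 16 pairs of neighbours in these orders, compared within tumors by permutation of signs and adjusted over the 16, 10 differed. Fgfr1 and Igf1r in 4T1 (adjusted p = 0.905, permutation test), Egfr and Esr1 in 4T1 (0.14), Esr1 and Prlr in 4T1 (0.0733), Erbb2 and Fgfr1 in 66cl4 (0.512), Fgfr1 and Met in 66cl4 (0.595), and Prlr and Egfr in 66cl4 (0.081) did not differ beyond the spread between tumors. Exons of all annotated transcripts were joined for the length, so that a gene of which a short form is expressed has its level understated.

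**Figure D2:**
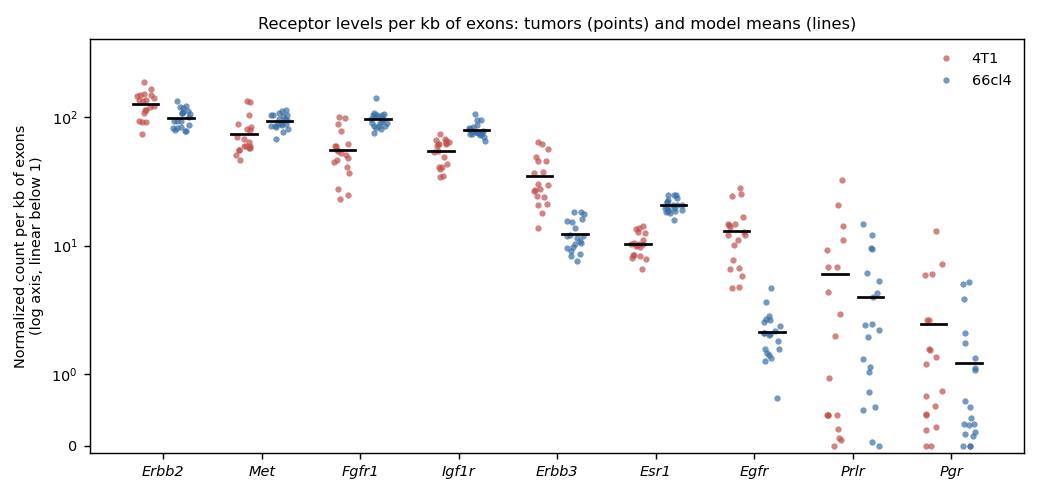
Normalized count per kb of exons of each receptor gene in each tumor (points, 4T1 red, 66cl4 blue) with the mean of each model (lines), on a log axis that is linear below 1. Erbb2 is highest with means of 127 and 98.8, Pgr is lowest with 2.44 and 1.22, and Prlr and Pgr spread down to 0.

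The ligands and partners of these receptors were taken from lists of pathway genes. Their counts stand against 40.8% of all genes that were higher and 38% that were lower in 4T1. Of 12 genes for ERBB ligands and Erbb4, 8 were in the table, without Ereg, Epgn, Nrg3 and Erbb4, and 4 were higher and 3 lower in 4T1, with a median difference of 0.13. Tgfa, which encodes a ligand of EGFR, had the largest rise, with 1110 ± 346.8 (SD, n = 19) normalized counts in 4T1 and 4.65 ± 2.92 (n = 20) in 66cl4, a difference of 3.83. Hbegf, a further EGFR ligand gene, was at 1199 ± 427.3 against 225.3 ± 59.9 and differed by 1.89. The neuregulin genes Nrg1 and Nrg2 fell, by 1.09 and 0.56, from 230.4 ± 80.1 and 51.5 ± 17.8 in 66cl4 to 58.6 ± 27.8 and 15.5 ± 11.1 in 4T1. The ligand genes of EGFR did not move in 1 direction, since Egf fell by 0.14 (8.47 ± 4.34 in 4T1 against 13.4 ± 4.08 in 66cl4) and Areg, at 0.15, did not pass the threshold (limma, adjusted p = 0.278). Of 8 genes around MET, 7 were in the table, without Hgfac, and 5 were higher and 1 lower in 4T1 (median difference 0.54). The largest rises were those of St14, the protease matriptase, by 3.99, and of its inhibitor Spint1, by 3.18, both on the VST scale. Hgf, the ligand gene of MET, rose by 0.54, opposite in sign to Met, with 57.85 ± 28.09 normalized counts in 4T1 and 17.8 ± 6.645 in 66cl4. Mst1, the ligand gene of the related receptor MST1R, fell by 0.26. The luminal markers were higher in the same model, and their part in these differences was not tested.

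Of 11 genes of the IGF axis, 10 were in the table, without Igfals, and 7 were higher and 2 lower in 4T1, with a median difference of 0.80. Igf2r, the receptor that clears IGF2, was at 1884 ± 678.9 normalized counts in 4T1 and 294.2 ± 53.7 in 66cl4, a VST difference of 2.23 (limma, adjusted p = 1.36e-20). The binding protein gene Igfbp3 rose by 2.08. Igf2 itself fell by 2.17, from 442.7 ± 554.6 in 66cl4 to 6.65 ± 6.23 in 4T1, with an SD above the mean in 66cl4, and Igfbp4 fell by 0.38. Of 10 FGF genes, 8 were in the table, without Fgf18 and Fgfr4, and 4 were higher and 2 lower (median difference 0.29). Fgfr2, which was at 1008 ± 451.3 normalized counts in 4T1 and at 194 ± 52.7 in 66cl4, differed by 1.78, opposite in sign to Fgfr1. Fgfrl1, a receptor without kinase domain, rose by 0.95, and the ligand genes Fgf10 and Fgf9 fell by 1.49 and 0.22. The ligand genes of this list did not move in 1 direction. Fgf2 rose by 0.55 (118.8 ± 45.8 normalized counts in 4T1 against 50.7 ± 9.01 in 66cl4), and Fgf1 and Fgf7 did not pass the threshold.

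Of 12 genes of steroid receptors, their partners and targets, 8 were in the table, without Esr2, Greb1, Tff1 and Ca12, and 6 were higher and 2 lower in 4T1 (median difference 0.36). Xbp1 and Foxa1, the second of which encodes a pioneer factor for the estrogen receptor, rose by 0.66 and 0.44. The glucocorticoid receptor gene Nr3c1 fell by 0.91, from 1153 ± 81.8 to 561.2 ± 88.0 normalized counts, and Ccnd1, the gene of cyclin D1, by 0.55. Thus the glucocorticoid receptor gene, like Esr1, was lower in 4T1. All 9 genes of prolactin signalling were in the table, and 6 were higher and 0 lower in 4T1 (median difference 0.39). The largest were those of Jak2, the kinase bound to the prolactin receptor, with 2629 ± 658.6 against 487.7 ± 44.9 normalized counts and a difference of 2.14, and of Cish, a STAT5 target, with 2.04. The 2 STAT5 genes, Stat5a and Stat5b, differed by 0.11 and 0.026 and did not pass the threshold. Of 16 receptor adaptors and feedback inhibitors, 6 were higher and 7 lower (median difference -0.085). Grb7, an adaptor gene that lies beside Erbb2, was at 481.2 ± 230.2 normalized counts in 4T1 and 4.40 ± 3.20 in 66cl4 and rose by 2.75, and Dusp4, a phosphatase of MAP kinases, by 2.01. Irs1, the adaptor of IGF1R, and Gab1, that of MET, fell by 1.07 and 0.96. In the other 9 comparisons, 0 genes of these 7 lists passed the threshold.

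Within a model, some receptor genes followed the tissue markers from tumor to tumor. For each model, each receptor gene was related to the other 8 and to the mean VST level of 9 lists of cell type markers after subtraction of the treatment group means, which gave 234 relations, with permutation within groups and adjustment over all of them. Of these, 21 had an adjusted p under 0.05 for Pearson's r. Prlr rose with milk genes and with basal and myoepithelial markers in both models, and with luminal markers in 66cl4. Its r with Csn1s1, Csn2 and Csn3 together, the lactating list, was 0.955 in 4T1 (n = 19, rho 0.896, permutation test, adjusted p = 0.000936 and 0.00201), and 0.917 without the 2 tumors farthest from the median. In 66cl4, it was 0.622 (n = 20, rho 0.666, permutation test, adjusted p = 0.0446 and 0.0222), and 0.67 without 2 tumors. There, the r of Prlr with the luminal list was 0.963 (rho 0.97, permutation test, adjusted p = 0.00078 and 0.000936) and 0.947 without 2 tumors. In 4T1, the r with the luminal list was -0.313 (rho -0.235, permutation test, adjusted p = 0.62 and 0.666). Levels in single 4T1 tumors show this relation. The highest Prlr level, 498.5 normalized counts in anti-PD-1-treated tumor 1, stood beside a lactating list level of 10.06, the highest of all tumors, and anti-PD-1-treated tumor 2, with 0 reads for Prlr, had the lowest of the 4T1 tumors at 6.17. Prlr was also related to adipocyte markers in 4T1, with an r of 0.84 (rho 0.816, permutation test, adjusted p = 0.0111 for both), and 0.717 without 2 tumors. With basal and myoepithelial markers, the r of Prlr was 0.873 in 66cl4 (rho 0.865, permutation test, adjusted p = 0.00195 for both, r 0.843 without 2 tumors). In 4T1, the r with these markers was 0.55 (rho 0.663, permutation test, adjusted p = 0.0111 and 0.0169, r 0.67 without 2 tumors).

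Pgr followed Prlr, with an r of 0.858 in 66cl4 (rho 0.841, permutation test, adjusted p = 0.00322 and 0.00702, r 0.781 without 2 tumors). In 4T1, r was 0.693, which missed the threshold, while rho was 0.765 (permutation test, adjusted p = 0.055 and 0.00702, r 0.71 without 2 tumors). In 4T1, Pgr was related to basal and myoepithelial markers, with an r of 0.735 (rho 0.847, permutation test, adjusted p = 0.00301 and 0.000936, r 0.784 without 2 tumors). In 66cl4, Pgr was related to the luminal list, with an r of 0.783 (rho 0.78, permutation test, adjusted p = 0.0454 and 0.0363, r 0.707 without 2 tumors). Erbb3 followed the luminal list in 66cl4, with an r of 0.844 (rho 0.836, permutation test, adjusted p = 0.0112 and 0.0175, r 0.784 without 2 tumors), and in 4T1 the r was 0.565 (rho not past the threshold either, permutation test, adjusted p = 0.119). Erbb3 was also related in 66cl4 to basal and myoepithelial markers, with an r of 0.751 (rho 0.791, permutation test, adjusted p = 0.0362 and 0.02, r 0.725 without 2 tumors). With Prlr, its r there was 0.864 (rho 0.856, permutation test, adjusted p = 0.00754 and 0.0111, r 0.808 without 2 tumors). Erbb2 followed the luminal list in 4T1, with an r of 0.733 (rho 0.746, permutation test, adjusted p = 0.0227 and 0.0222, r 0.633 without 2 tumors), and in 66cl4 the r was 0.266 (permutation test, adjusted p = 0.507). Erbb2 was also related to Erbb3 in 4T1, with an r of 0.575 (rho 0.702, permutation test, adjusted p = 0.0362 and 0.025, r 0.546 without 2 tumors). In 66cl4, the r of Erbb2 with Erbb3 was 0.401 (permutation test, adjusted p = 0.279). Whether these relations differed between the models was not tested. Esr1 had no marker list past the threshold and was related to Erbb2 in 66cl4, with an r of 0.778 (rho 0.802, permutation test, adjusted p = 0.0111 and 0.00702, r 0.679 without 2 tumors).

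Egfr and Fgfr1, of which the first was higher and the second lower in 4T1, rose and fell together among 4T1 tumors, with an r of 0.863 (rho 0.875, permutation test, adjusted p = 0.000936 for both, r 0.802 without 2 tumors). Both followed the fibroblast list (Col1a1, Col1a2, Col3a1, Dcn, Lum, Pdgfra), Egfr with an r of 0.92 (rho 0.94, permutation test, adjusted p = 0.00078 and 0.000936, r 0.931 without 2 tumors) and Fgfr1 with an r of 0.867 (rho 0.867, permutation test, adjusted p = 0.00078 and 0.000936, r 0.826 without 2 tumors). The relations were not limited to this list. Endothelial markers also passed in 4T1, with an r of 0.727 for Egfr and 0.676 for Fgfr1 (rho 0.704 and 0.688, permutation test, adjusted p for r = 0.0261 and 0.0438, r 0.668 and 0.696 without 2 tumors), and so did skeletal muscle markers for Egfr, with an r of 0.729 (rho 0.721, permutation test, adjusted p = 0.0438 and 0.0415, r 0.582 without 2 tumors). With the luminal list, the r of Egfr in 4T1 was -0.212 (permutation test, adjusted p = 0.736). In 66cl4, the r with fibroblast markers was 0.453 for Egfr and -0.318 for Fgfr1, and neither passed the threshold (permutation test, adjusted p = 0.219 and 0.46). The fibroblast list ran from 8.98 to 13.16 in 4T1 and from 9.87 to 11.21 in 66cl4, a narrower range. All r are taken over tumors that share their cell line and, for the lists, the sequencing of the same library.

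**Figure D3:**
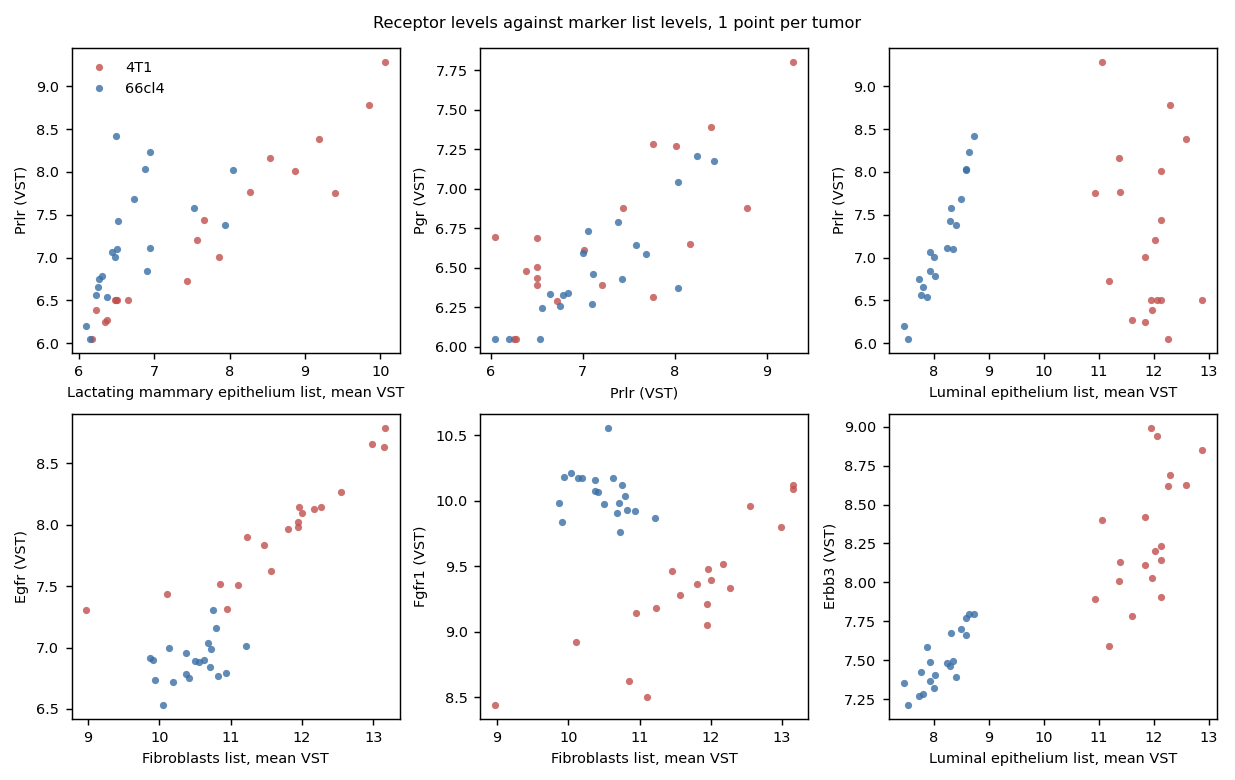
VST level of Prlr, Pgr, Egfr, Fgfr1 and Erbb3 (vertical axes) against the mean VST level of a marker list or against Prlr (horizontal axes), with 1 point per tumor (4T1 red, 66cl4 blue) and without subtraction of group means. Prlr climbs with the lactating list in 4T1 and steeply with the luminal list in 66cl4, and Egfr and Fgfr1 climb with the fibroblast list in 4T1, where that list spans 8.98 to 13.16.

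The 3 genes most like each receptor gene were sought over all genes and all 39 tumors by Pearson's r after subtraction of group means, as a description without a test. For Prlr, they were Ptn (0.938), Tmprss2 (0.923) and Vill (0.914). For Pgr, they were Slc5a5 (0.763), which encodes the iodide transporter of the lactating gland and thyroid, Prlr (0.761) and the WNT inhibitor gene Wif1 (0.754). Egfr was most like Chl1 (0.925), Lgi2 and the matrix gene Podn (0.921 each), and Fgfr1 like Adamts2 (0.865), which encodes a procollagen protease, Pcsk5 (0.861) and Myl9 (0.855). For the 3 genes most like Fgfr1, r was 0.926 to 0.949 in 4T1 alone and 0.237 to 0.398 in 66cl4 alone. Erbb3 was most like Marveld3 (0.808), Serpinb5 (0.783) and the basal keratin gene Krt14 (0.765), and Erbb2 like Brf2 (0.747), Btbd2 (0.737) and Thra (0.732). Met was most like Nup153 (0.86), Scaf11 (0.844) and Cbfb (0.832), Esr1 like Sh3bp5 (0.776), Ncor1 (0.693) and Zfp809 (0.684), and Igf1r like Car9 (0.794), a carbonic anhydrase gene, Fndc3a (0.785) and the glycolytic gene Gpi1 (0.781).

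Treatment was compared within each model, and 0 of the 9 receptor genes passed the threshold in any of the 8 comparisons by limma, where 0% of all genes passed. limma-voom on recovered reads called 0 genes in each as well. The treated groups of a model share their untreated tumors. In 4T1, the chitin-containing groups differed from the other groups by 0.18 for Erbb2 (95% interval -0.038 to 0.41), 0.17 for Met (-0.17 to 0.52), 0.16 for Igf1r (-0.049 to 0.36), 0.13 for Erbb3 (-0.20 to 0.47), 0.079 for Prlr (-0.72 to 0.88), 0.026 for Egfr (-0.39 to 0.44), 0.010 for Fgfr1 (-0.44 to 0.46), -0.096 for Esr1 (-0.26 to 0.072) and -0.13 for Pgr (-0.50 to 0.24). The intervals all included 0, and those of Prlr were wide enough for a large change in either direction. The signs for Prlr, Egfr and Fgfr1 depended on the processing or on single tumors. At an unadjusted p under 0.05, 0 of the 9 genes differed, against 7.28% of all genes (1042, and 1087 in limma-voom).

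The receptor gene with the smallest p of all treatment comparisons was Igf1r in anti-PD-1-treated 4T1 tumors. Untreated tumors held 1071, 1096, 1031 and 1055 normalized counts, and anti-PD-1-treated tumors held 665.6, 820.4, 575.9, 581.8 and 717.2. All 5 treated tumors thus lay below all 4 untreated ones, which was so for 1.11% of all genes. The difference was -0.59 (95% interval -0.88 to -0.29), with an unadjusted p of 0.000618 in limma that did not pass after adjustment over all genes (0.517). With weights estimated for each tumor and with both models in 1 fit, it passed (limma, adjusted p = 0.0151 and 0.0246, where the range over all 9 alternatives was 0.0151 to 0.694). Under these settings, 960 and 60 of all 14318 genes passed, against 0 in the main fit. Igf1r was at 994.2 ± 212.7 in the chitin group and at 945.2 ± 163.8 in the combination group (SD, n = 5 each), and both overlapped with untreated tumors. In the same comparison, Pgr and Prlr differed by 0.72 and 1.38 (unadjusted p = 0.0124 and 0.0227, limma, with adjusted p = 0.517 and 0.527), so that 3 of the 9 genes had an unadjusted p under 0.05, against 8.89% of all genes (1273, and 1004 in limma-voom). Prlr was at 3.55, 1.56, 14.6 and 6.55 normalized counts in untreated 4T1 tumors and at 498.5, 0, 104.9, 215.8 and 104.2 with anti-PD-1, so that 4 of 5 treated tumors lay above all untreated ones and the fifth below. With weights estimated for each tumor, Prlr passed the threshold as well, among the same 960 of all 14318 genes. The lactating list stood at 6.23 to 7.44 in the untreated and at 6.17 to 10.06 in the anti-PD-1 group, and the adipocyte list at 6.32 to 7.39 and 6.22 to 9.99. Their part in the Prlr and Pgr differences was not tested.

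With chitin, the smallest p in 4T1 was that of Erbb3. Untreated tumors held 145.4, 107.9, 82.9 and 385.3 normalized counts and chitin-treated tumors 337.5, 368.2, 223, 165.6 and 291.7, and the groups overlapped through the single untreated tumor at 385.3. The difference was 0.51 (unadjusted p = 0.0412, adjusted p = 1, limma), and it became 0.81 without untreated tumor 5, the one at 385.3, and 0.34 without untreated tumor 4. In limma-voom, it was 0.85. At an unadjusted p under 0.05, 1 of the 9 genes differed, against 2.77% of all genes (397, and 319 in limma-voom). With chitin + anti-PD-1, it was Esr1, which was at 120.3 ± 22.1 (n = 5) against 157.5 ± 40.8 (SD, n = 4) normalized counts in untreated tumors and differed by -0.22 (unadjusted p = 0.0767, adjusted p = 1, limma), or by -0.41 in limma-voom. Here 0 of the 9 genes had an unadjusted p under 0.05, against 2.56% of all genes (367, and 288 in limma-voom).

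In 66cl4, the chitin-containing groups differed from the others by -0.16 for Erbb2 (95% interval -0.32 to -0.0039), -0.12 for Igf1r (-0.24 to 0.00029), -0.073 for Esr1 (-0.19 to 0.041), -0.067 for Fgfr1 (-0.22 to 0.084), 0.034 for Egfr (-0.12 to 0.19), 0.056 for Pgr (-0.25 to 0.37), 0.068 for Met (-0.082 to 0.22), 0.10 for Erbb3 (-0.060 to 0.27) and 0.27 for Prlr (-0.32 to 0.86). Erbb2 had the smallest p (unadjusted 0.0451, adjusted p = 0.308, limma). It was at 462.2 ± 60.6 in the chitin and 492.7 ± 60.5 in the combination group, against 558.7 ± 77.6 without treatment and 546.2 ± 115.9 with anti-PD-1 (SD, n = 5 each), and all groups overlapped. This was 1 of the 9 genes at an unadjusted p under 0.05, against 15.6% of all genes (2238, and 2086 in limma-voom). The chitin and chitin + anti-PD-1 groups had more reads, with medians of 10250227 and 8985408 against 6064018 without treatment and 6166518 with anti-PD-1, and with equal depth in all tumors the sign of these 9 differences was the same. In limma-voom, the signs for Pgr and Prlr were reversed, and those for Pgr and Egfr changed with single tumors.

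For the single treatments of 66cl4 tumors, anti-PD-1 gave the smallest p for Igf1r, at -0.15 (unadjusted p = 0.0836, adjusted p = 0.911, limma), and 0 of the 9 genes had an unadjusted p under 0.05, against 5.36% of all genes (767, and 618 in limma-voom). Chitin gave it for Erbb2, at -0.22 (unadjusted p = 0.0569, adjusted p = 0.453, limma), again with 0 of 9, against 11.4% of all genes (1639, and 1593 in limma-voom). With chitin + anti-PD-1, it was Igf1r once more. Its tumors held 1312, 1242, 1283, 1241 and 1091 normalized counts, and untreated tumors 1761, 1398, 1302, 1345 and 1574. The groups overlapped by a single tumor on each side, and the difference was -0.23 (95% interval -0.40 to -0.064, unadjusted p = 0.00915, adjusted p = 0.336, limma). This was 1 of the 9 genes, against 10.6% of all genes (1516, and 1443 in limma-voom). Since the same untreated tumors enter these comparisons, the values for Igf1r are not independent.

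**Figure D4:**
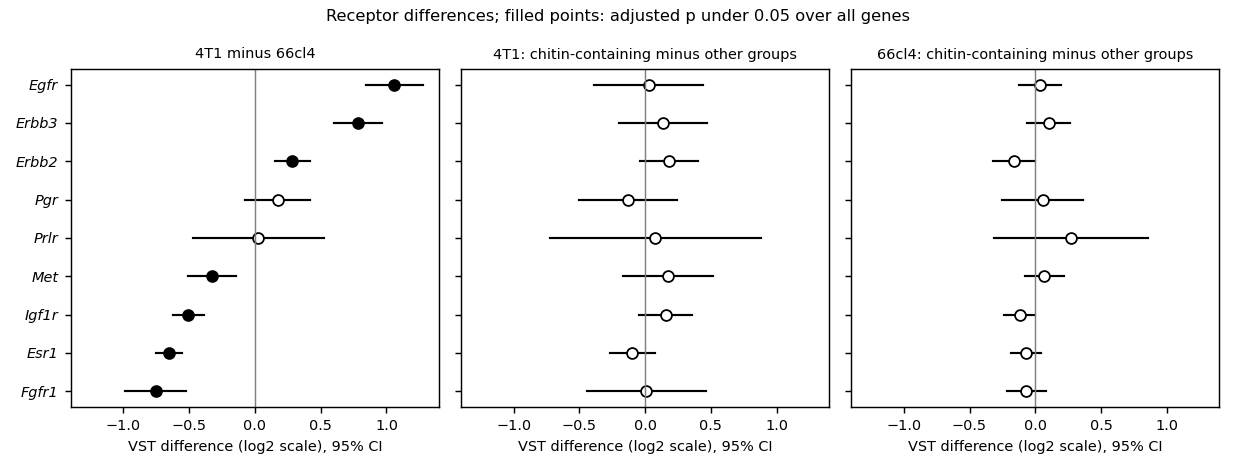
Differences in VST level (log2 scale) of the 9 receptor genes with 95% confidence intervals, between the models and between chitin-containing and other groups in each model. Filled points passed an adjusted p of 0.05, and 7 did between the models, from -0.75 for Fgfr1 to 1.06 for Egfr, and 0 in both chitin comparisons.

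Whether the chitin contrast differed between the models was tested in 1 fit over the 8 groups. Erbb2 had the smallest p, with 0.18 in 4T1, -0.16 in 66cl4 and a difference between them of 0.35 (95% interval 0.079 to 0.62, unadjusted p = 0.0129, adjusted p = 0.235, limma). In 4T1, the highest Erbb2 levels were in the chitin group, at 980.4, 865.1, 784.1, 701.4 and 755.3 normalized counts, while the chitin + anti-PD-1 group held 619.9, 588.2, 696.5, 766.9 and 380.1 and untreated tumors 585.2, 708.3, 553.8 and 768. The chitin group alone thus stood high, and it still overlapped with both. Luminal markers, with which Erbb2 was related in 4T1, stood at 11.84 to 12.88 in the chitin group and at 11.18 to 11.96 in untreated tumors, and their part in the difference was not tested. With weights estimated for each tumor, Erbb2 passed the threshold, with a difference of 0.47 (limma, adjusted p = 0.0142, where the range over all 8 alternatives was 0.0142 to 0.238). Under these weights, 1004 of all 14318 genes passed, against 14 in the main fit. At an unadjusted p under 0.05, 2 of the 9 genes, Erbb2 and Igf1r, differed, against 13.2% of all genes, and at the threshold 0 of 9, against 0.0978% of all genes (14, and 8 in limma-voom).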

How the data were processed

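RNA of 39 primary tumors was extracted with a column kit and sequenced as paired ends on an Illumina instrument. The authors mapped reads to mm10 with HISAT2, counted them per gene with summarizeOverlaps in the mode that resolves overlaps by intersection, with regard to strand, filtered for genes above 10 raw reads in 10% or more of cases, and deposited log2-like values of the variance stabilizing transformation (VST) of DESeq2. Versions and the annotation used for counting are not given in the sources used here. The inverse of the transformation gave whole reads for 100% of values (tolerance 0.001). Groups were compared on the VST scale with limma 3.58.1 (mean-variance trend) in R 4.3.3, with Benjamini-Hochberg adjustment over 14318 genes and a threshold of 0.05. All 8 groups entered the fit for the models, and the 4 groups of a model that for treatment; the procedure was tested on simulated data. Gene positions came from RefSeq and exon lengths from GENCODE, both on mm10. Intervals are at 95%. Limits for 0 reads cover counting error only, as reads had no molecular identifiers.

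The 9 genes, the lists and the rules were chosen with earlier results of these data known. Named were all 9 genes, the one with the smallest p in each treatment comparison, the up to 2 largest rises and falls of each pathway list between models, and the 3 genes most like each receptor gene. Others (Egf, Areg, Hgf, Fgf1, Fgf2, Fgf7, Stat5a, Stat5b, and Pgr and Prlr with anti-PD-1) were named after their values were seen. Relations were tested with 100000 permutations in Python 3.11.15 (numpy 2.4.6).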

Additional observations from a re-analysis of the deposited data

Results flagged for a closer look

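Each of the 9 genes was checked in each of the 8 groups for a tumor far from the others by Dixon's test on the VST level, which gave 72 groups, of which 3 held such a tumor. By chance about 1 group in 20 would hold one.

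Pgr in 66cl4 tumor 1 of the anti-PD-1 group stood at 6.05, the level of 0 reads, while the other 4 tumors of that group lay between 6.60 and 6.79. Met in anti-PD-1-treated 4T1 tumor 2 stood at 10.2, or 1016 normalized counts, while the other 4 lay between 8.91 and 9.18. Met in anti-PD-1-treated 66cl4 tumor 2 stood at 9.9, or 827.9 normalized counts, while the other 4 lay between 9.59 and 9.64. The 4T1 tumor with the high Met level is also the one with 0 reads for Prlr.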

How the results depend on the processing

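Tested in turn were the removal of genes in the lowest 25% by mean, no trend, median centring, quantile normalization, limma-voom, equal depth, weights per tumor, the tumor number as a block, both models in 1 fit, untreated groups only, and the omission of each tumor. Of 298 single-gene values under these alternatives, 283 kept direction and side of the threshold, and so did 823 of 858 with 1 tumor left out, where the other 35 changed sign. The cause of the changes was not tested. At this depth, Pgr had 0 reads in 2 of the 4T1 and 3 of the 66cl4 tumors, each of which allows up to 3 reads. Levels without length give the same ratios within a gene.

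Between the models, 7 receptor genes passed (7 with any tumor left out), as did 11283 genes in all. In limma-voom, Pgr moved to 0.90, Egfr to 2.38, Erbb3 to 1.32 and Esr1 to -1.09. Between untreated groups only, Pgr became -0.0014, Prlr -0.49; Prlr became -0.058 with quantile normalization and -0.18 in limma-voom. For the chitin contrast in 4T1, Prlr became -0.27 with weights, Egfr and Fgfr1 -0.026 and -0.024 in limma-voom, and Fgfr1 -0.022 with the replicate block; in 66cl4, Pgr and Prlr became -0.65 and -0.52 in limma-voom.

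Genes past the threshold rose from 0 to 960 (weights) and 60 (1 fit) for anti-PD-1 in 4T1, with 2 receptor genes (Igf1r, Prlr) and 1 (Igf1r). For the chitin contrast they rose to 297 (weights) and 58 (1 fit) in 4T1, and to 185 (weights), 12 (equal depth), 16 (block) and 1 (1 fit) in 66cl4. For chitin + anti-PD-1 they rose to 1 (equal depth), 1 (block) and 3 (1 fit) in 4T1 and to 7 (block) in 66cl4, and for chitin in 66cl4 to 2 (block). For the difference of the chitin contrast, 14 became 8 (filter), 39 (quantile), 8 (limma-voom), 5 (equal depth), 1004 (weights, with 1 receptor gene) and 104 (block).

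With 1 tumor left out, the range was 0 to 80 for anti-PD-1 in 4T1 (80 without anti-PD-1-treated tumor 2), 0 to 1 for the chitin contrast in 4T1, 0 to 269 in 66cl4 (269 without untreated tumor 3), 0 to 25 for chitin and 0 to 3 for chitin + anti-PD-1 in 66cl4, and 0 to 677 for the difference (677 without anti-PD-1-treated 4T1 tumor 2, 0 without untreated 4T1 tumor 5). Receptor genes stayed at 0 in all of these. Signs that changed gave -0.15 to 0.26 for Prlr, -0.057 to 0.12 for Egfr and -0.079 to 0.13 for Fgfr1 in the 4T1 chitin contrast, -0.033 to 0.12 for Pgr and -0.014 to 0.073 for Egfr in that of 66cl4, and -0.069 to 0.14 for Prlr between the models.

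Correlations of same-numbered tumors between groups ran from -0.392 to 0.539. Differently numbered tumors were not compared, so whether the numbers pair the tumors was not tested. The block changed no call of a receptor gene.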
